A study of Mus musculus with 18 samples.

Results

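The 44 genes described here encode the keratins, claudins, other tight junction and polarity proteins, desmosome proteins and regulators that give an epithelial sheet its filaments and seals. They were taken by name from a table of 21647 mouse genes by a rule that uses no measured value. The list was, however, chosen with earlier results of these data known. By role they are 7 keratins, 13 claudins, 9 other tight junction and polarity genes, 6 adhesion genes and regulators, 7 desmosome genes and 2 genes known from mesothelium, the epithelium that lines body cavities. Of the 44 genes, 33 had enough reads to test. The other 11 were Krt23, Cldn6, Cldn7, Cldn8, Cldn10, Cldn11, Cldn16, Ocln, Cdh1, Rab25 and Dsc2, and of these Cldn8 and Cldn11 had 0 reads in every library.

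The cells were cultures that the labels name mouse embryonic aortic endothelial cells, the lining cells of the aorta. They were either wild type (WT) or homozygous for the Tg737 orpk allele, an insertion in Ift88, which encodes a protein that moves cargo within the primary cilium, a sensory antenna of the cell. Each genotype was kept static or exposed for 48 h to laminar shear of 2 or 30 dyn/cm2 on gelatin-coated slides, following 24 h of serum starvation. Each of the 6 groups held 3 libraries of poly(A) RNA, 18 in all, and neither strain, age, nor the number of animals or isolations behind them is given in the sources used here. The p-values therefore speak only for the variation among these libraries, and that variation may be technical.

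Epithelial cells carry paired keratin filaments, a type I chain such as Krt18 with a type II chain such as Krt8, anchored at desmosomes by desmoplakin (Dsp). Claudins span the membrane at tight junctions and set which ions and solutes pass between cells, while the zonula occludens proteins Tjp1 and Tjp3 and cingulin (Cgn) tie them to actin. The Grhl and Ovol factors and the Esrp splicing factors maintain this state, and the Zeb, Snai and Twist factors repress it, in part through E-box sequences in promoters. Endothelium has tight junctions as well, built on Cldn5 and Tjp1, but is known for vimentin filaments, for Cdh5 (VE-cadherin) in place of Cdh1 (E-cadherin), and for the lack of true desmosomes.

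Levels are CPM (library counts scaled to a common total), normalised for library composition, and a gene was called where the Benjamini-Hochberg adjusted p of edgeR's quasi-likelihood test was below 0.05. The ± after a mean CPM is the SD of 3 libraries. The ± after a log2 fold change is an approximate SE from the model of all 18 libraries. It is the size of the fold change divided by the square root of that test's F statistic. For genes of few reads in a group, such as Krt8 with 14 reads in static orpk cells, it can be narrower than the counting error. Library totals ran from 13626480 to 17387553 counts. Ift88 itself lay at 12.8 to 17.4 CPM in the 9 WT libraries and at 6.37 to 8.46 CPM in the 9 orpk libraries, without overlap. The labelled cell type was checked against 14 endothelial markers, which summed to 13.5 to 14.3 CPM in static WT libraries and to 21.4 to 22.7 CPM in static orpk libraries. Cdh5, Cldn5, Emcn, Erg, Kdr, Sox17 and Tie1 had 0 reads in static WT cells. In static orpk cells Cldn5 and Sox17 had 0 reads and Cdh5 had 26 reads over the 3 libraries. Of the 14 markers 3 were over 1 CPM in static WT cells and 7 in static orpk cells. Of the 9 tested 7 were higher in static orpk cells, as were 44.4% of all tested genes. In these bulk libraries fewer cells of a type and less RNA per cell cannot be told apart. WT replicate 1 and orpk replicate 2 at 2 dyn/cm2 stood apart from the other libraries of their groups. The chi-square per degree of freedom of their counts against those libraries was 6.10 and 7.43 for the WT library and 3.28 and 3.66 for the orpk library, compared with 1.42 and 1.55 between the remaining pairs. Without the WT library the number of called genes of the 33 moved from 22 to 23 in the comparison of 2 dyn/cm2 with static WT cells and from 18 to 17 in that of 30 with 2 dyn/cm2. Without the orpk library it moved from 13 to 12 in the comparison of 2 dyn/cm2 with static orpk cells. Exons of 12 of the 44 genes overlap a gene on the other strand (Krt7, Krt8, Krt80, Cldn3, Cldn19, Tjp3, Crb3, Esrp1, Esrp2, Grhl2, Dsp and Dsg2). The strand setting of the counting is not given in the sources used here, so reads of such pairs may not be told apart.

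**Figure D1:**
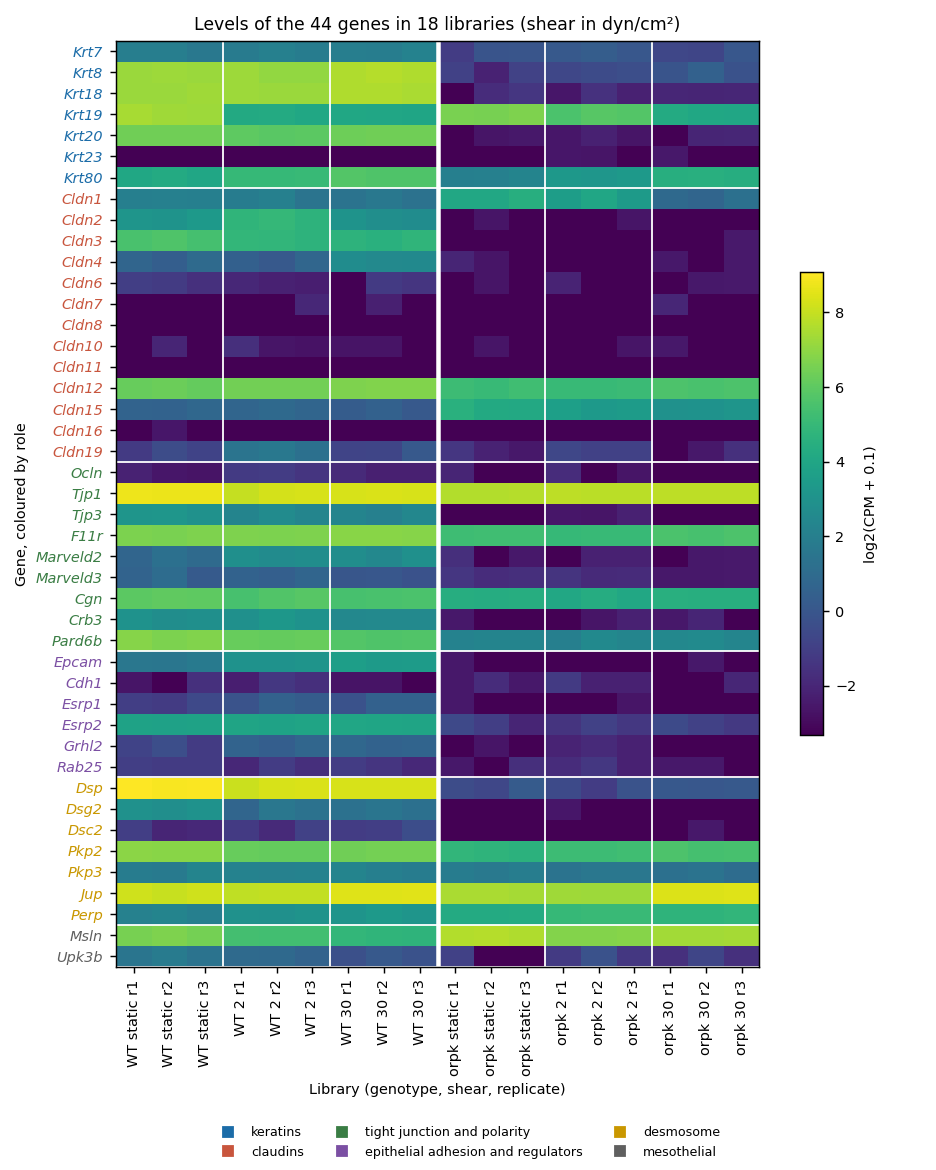
Level of each of the 44 genes (rows, coloured by role) in each of the 18 libraries (columns, by genotype, shear and replicate), as log2(CPM + 0.1) on the colour scale. Most rows are brighter in the 9 WT libraries on the left than in the 9 orpk libraries on the right, Tjp1, Jup and Cldn12 are bright in both, and Cldn15, Perp and Msln are brighter on the right.

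Static WT cells expressed most of the epithelial set and static orpk cells expressed fewer of its genes. Over 1 CPM on average stood 30 of the 44 genes in static WT cells and 14 in static orpk cells. These numbers were 33 and 15 at 2 dyn/cm2, and 30 and 14 at 30 dyn/cm2. Of the 33 tested genes, 28 were lower and 4 higher in orpk than in WT cells in static culture, where 87.8% of all 13058 tested genes were called. Under 2 dyn/cm2 28 were lower and 5 higher (87.5% of all genes called, 42.9% lower and 44.6% higher). Under 30 dyn/cm2 27 were lower and 3 higher (86.9% called, 42.0% lower and 44.9% higher). The share called was near the background and is no result about these genes, so their directions and sizes are given beside those of all genes. In static culture 43.4% of all genes were lower and 44.4% higher in orpk cells. Lower by more than 1 on the log2 scale were 26 of the 33 and 18.2% of all genes. The median log2 fold change over the 33 was -3.87 as fitted, and over all genes it was 0.01. With 10 genes of 3 reads or fewer in orpk cells placed at their read ratio or bound it was -4.24. Of the 33 genes 11 had 10 reads or fewer in the 9 orpk libraries together and entered the test through the WT libraries. These counts and medians therefore describe the genes and are no test of the set.

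**Figure D2:**
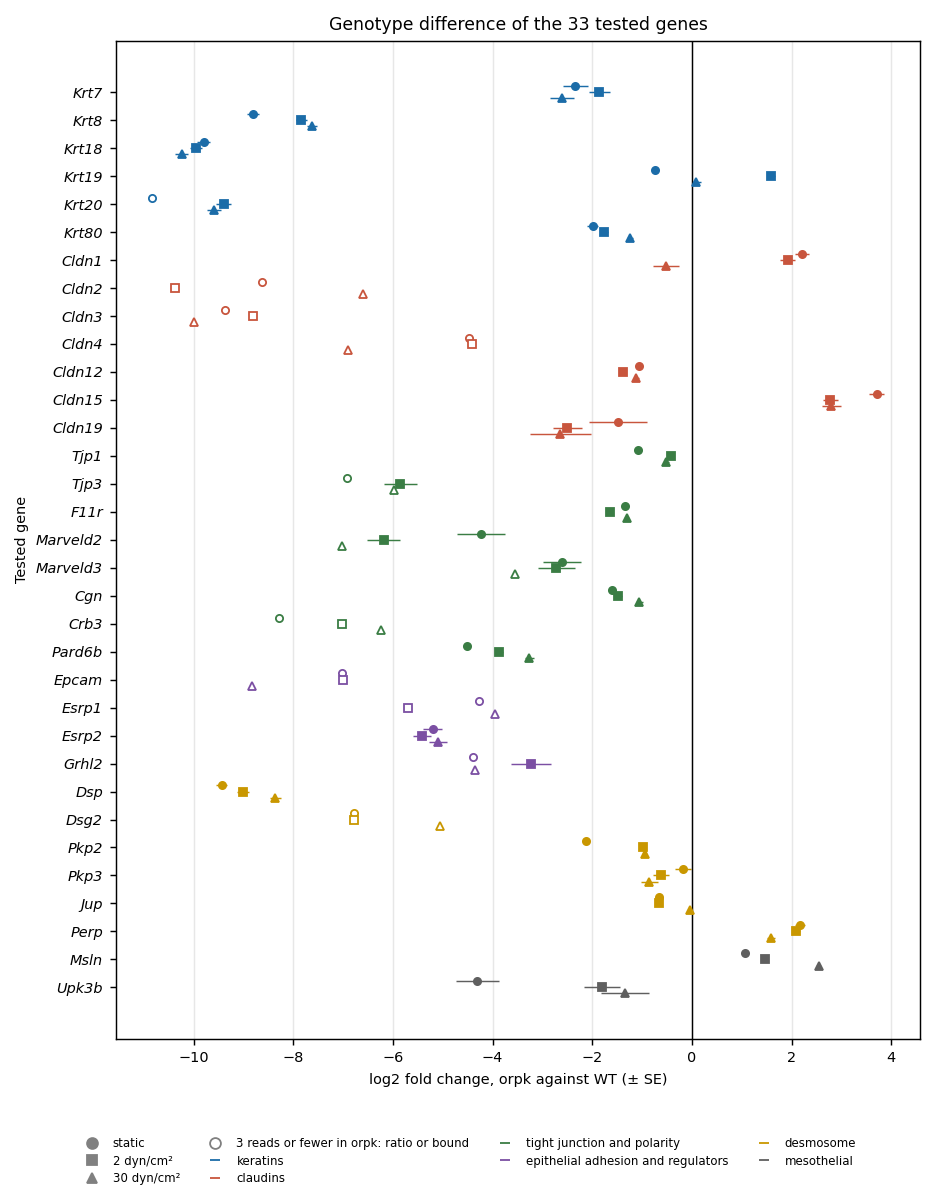
Log2 fold change of orpk against WT cells (horizontal axis, ± SE) for each of the 33 tested genes (rows, coloured by role) in static culture (circles), at 2 dyn/cm2 (squares) and at 30 dyn/cm2 (triangles). Open symbols are genes with 3 reads or fewer in the orpk group, drawn at their read ratio or, at 0 reads, at the bound against 3 reads. Most symbols lie left of 0, and those of Cldn15, Perp and Msln lie right of it at every shear.

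The simple-epithelial keratins Krt8, Krt18 and Krt20 were strongly expressed in WT cells and near 0 in orpk cells. Krt8 stood at 146, 153 and 147 CPM in the 3 static WT libraries and at 0.428, 0.129 and 0.439 CPM in the static orpk libraries, a log2 fold change of -8.81 ± 0.12, adjusted p = 4.03e-42. The static levels of its partner Krt18 were 147, 149.8 and 156 CPM (WT) and 0, 0.194 and 0.293 CPM (orpk), a difference of -9.80 ± 0.13, adjusted p = 4.93e-43. These orpk libraries held 7 reads of Krt18 together, so this ± can be narrower than the counting error. Krt20, a keratin of intestinal and urothelial surface cells, stood at 84.7, 84.9 and 83.1 CPM in WT libraries and had 2 reads in the 3 orpk libraries together. That is 1817-fold lower, with a 95% exact counting interval of 502.7 to 15010. For all 3 keratins every WT library lay far above every orpk library, at each shear.

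Krt8 and Krt18 both rose at 30 dyn/cm2 in WT cells. Krt8 stood at 151, 133 and 136 CPM at 2 dyn/cm2 and at 193, 205 and 192 CPM at 30 dyn/cm2, a rise over static of 0.40 ± 0.04, adjusted p = 8.72e-11. Krt18 stood at 156, 149.5 and 150.5 and then at 196, 192 and 181 CPM, and rose by 0.33 ± 0.04, adjusted p = 4.79e-09 at 30 dyn/cm2. Neither was called at 2 dyn/cm2 against static (-0.09 ± 0.04, adjusted p = 0.0898 for Krt8 and 0.01 ± 0.04, adjusted p = 0.914 for Krt18). The Krt8 value was called without WT replicate 1 at 2 dyn/cm2 (-0.14, adjusted p = 0.0019) and with RLE size factors (-0.11, adjusted p = 0.0327). The Krt18 value was called with library totals as the scaling (0.12, adjusted p = 0.0136). In orpk cells Krt8 stood at 0.529, 0.601 and 0.680 CPM at 2 dyn/cm2 and at 0.824, 1.36 and 0.775 CPM at 30 dyn/cm2, below every WT library. The level at 30 dyn/cm2 was higher than in static orpk cells (1.59 ± 0.42, adjusted p = 0.00085). Krt20 fell at 2 dyn/cm2 in WT cells, to 64.3, 59.6 and 60.8 CPM (-0.45 ± 0.05, adjusted p = 3e-11). Its level of 81.9, 83.2 and 83.1 CPM at 30 dyn/cm2 was not called against static (-0.03 ± 0.04, adjusted p = 0.638).

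Krt8 and Krt18 are neighbours on chromosome 15 with 23.7 kb between them, and their promoter windows are shown because both genes were near 0 in orpk cells, with the E-box CAGGTG, or CACCTG on the other strand, in capitals. The windows are RefSeq sequences of GRCm38.p6, each running from 250 bases before the start of the gene to 50 after it. Krt8 is on the minus strand (chr15:102004293-102004592), Krt18 on the plus strand (chr15:102027966-102028265) and Krt20, which holds neither the E-box nor the GRHL motif in its window, on the minus strand of chromosome 11 (chr11:99438104-99438403).
Krt8: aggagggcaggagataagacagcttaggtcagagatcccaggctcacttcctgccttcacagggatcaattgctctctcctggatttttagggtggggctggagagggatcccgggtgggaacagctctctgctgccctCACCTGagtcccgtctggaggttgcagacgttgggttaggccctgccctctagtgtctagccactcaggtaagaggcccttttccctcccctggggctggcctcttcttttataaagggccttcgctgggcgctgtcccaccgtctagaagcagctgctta
Krt18: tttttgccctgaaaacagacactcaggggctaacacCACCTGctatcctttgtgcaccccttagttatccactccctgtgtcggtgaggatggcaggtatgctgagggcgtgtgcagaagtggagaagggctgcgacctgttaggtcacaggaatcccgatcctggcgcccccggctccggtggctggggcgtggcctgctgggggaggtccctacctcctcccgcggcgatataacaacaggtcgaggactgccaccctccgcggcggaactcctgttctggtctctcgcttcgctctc
Krt20: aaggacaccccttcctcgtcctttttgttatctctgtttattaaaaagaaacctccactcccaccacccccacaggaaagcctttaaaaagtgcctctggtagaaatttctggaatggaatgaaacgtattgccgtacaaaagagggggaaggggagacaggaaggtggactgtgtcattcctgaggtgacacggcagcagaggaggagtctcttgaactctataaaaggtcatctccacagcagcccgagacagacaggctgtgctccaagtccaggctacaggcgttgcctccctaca

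Krt19 changed under flow in both genotypes and crossed over between them. This type I keratin without the usual tail domain is found in ducts and in mesothelium. In static culture it stood at 173, 159.6 and 154 CPM in WT and at 96.8, 92.0 and 102 CPM in orpk libraries, lower in orpk cells (-0.74 ± 0.05, adjusted p = 1.97e-15). It fell at 2 dyn/cm2 in WT cells to 18.3, 18.8 and 16.4 CPM (-3.18 ± 0.06, adjusted p = 1.34e-30) and in orpk cells to 47.6, 58.7 and 54.1 CPM (-0.85 ± 0.06, adjusted p = 5.45e-15). Every orpk library thus lay above every WT library at 2 dyn/cm2 (1.59 ± 0.07, adjusted p = 7.16e-21), the reverse of static culture. Under 30 dyn/cm2 the WT libraries held 16.6, 16.3 and 15.5 CPM of it and the orpk libraries 18.9, 16.4 and 16.2 CPM, a difference that was not called (0.09 ± 0.09, adjusted p = 0.363). With library totals as the scaling it was called lower in orpk cells (-0.22, adjusted p = 0.0213). Between 2 and 30 dyn/cm2 Krt19 was not called in WT cells (-0.14 ± 0.09, adjusted p = 0.227) and fell in orpk cells (-1.64 ± 0.08, adjusted p = 1.45e-19). The fall from static at 2 dyn/cm2 was smaller in orpk than in WT cells by 2.33 ± 0.09, adjusted p = 1.14e-21.

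Krt80, a type II keratin of differentiating epithelia, rose with each step of shear in both genotypes. In WT libraries it stood at 16.4, 18.9 and 15.9 CPM static, 31.8, 31.8 and 32.4 CPM at 2 dyn/cm2 and 54.1, 51.1 and 50.3 CPM at 30 dyn/cm2. In orpk libraries it stood at 3.99, 4.07 and 4.76, 9.52, 9.02 and 9.90 and 22.1, 22.5 and 20.9 CPM, in the same order. The groups of a genotype did not overlap. The rise from static to 30 dyn/cm2 was 1.61 ± 0.06, adjusted p = 8.73e-25, in WT and 2.36 ± 0.10, adjusted p = 1.57e-23, in orpk cells. It was larger in orpk cells by 0.75 ± 0.13, adjusted p = 2.6e-06. Krt7, a partner of Krt19 in ducts, was low, at 3.58 ± 0.464 CPM (SD, n = 3) in static WT and 0.691 ± 0.291 CPM in static orpk cells (-2.34 ± 0.25, adjusted p = 1.67e-11). It was called in no shear comparison. Library totals as the scaling made the step from 2 to 30 dyn/cm2 in orpk cells a call (-0.66 ± 0.34, adjusted p = 0.0896 before and -0.77, adjusted p = 0.0444, after). Leaving out orpk replicate 3 at 30 dyn/cm2 did so too (-0.99, adjusted p = 0.0329), and the difference in response over that step was then called as well (-1.08, adjusted p = 0.0388). Krt23 had 3 reads over the 18 libraries, all of them in orpk cells. Of 16 other keratins listed for comparison, among them the basal keratins Krt5 and Krt14, 2 were tested and 8 had 0 reads in static WT cells.

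Per kilobase of exon, static WT cells held most Krt18 (105 CPM per kb), followed by Krt19 (87.4), Krt8 (76.0) and Krt20 (43.7), with Krt80 at 2.67 and Krt7 at 0.508 CPM per kb. Under 30 dyn/cm2 the order in WT cells was Krt18, Krt8, Krt20, Krt19, Krt80 and Krt7. There Krt19 had dropped to 8.71 CPM per kb, close to Krt80 at 8.11. In static orpk cells Krt19 made up 98.0% of the summed keratin level per kb, against 27.7% in static WT cells.

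**Figure D3:**
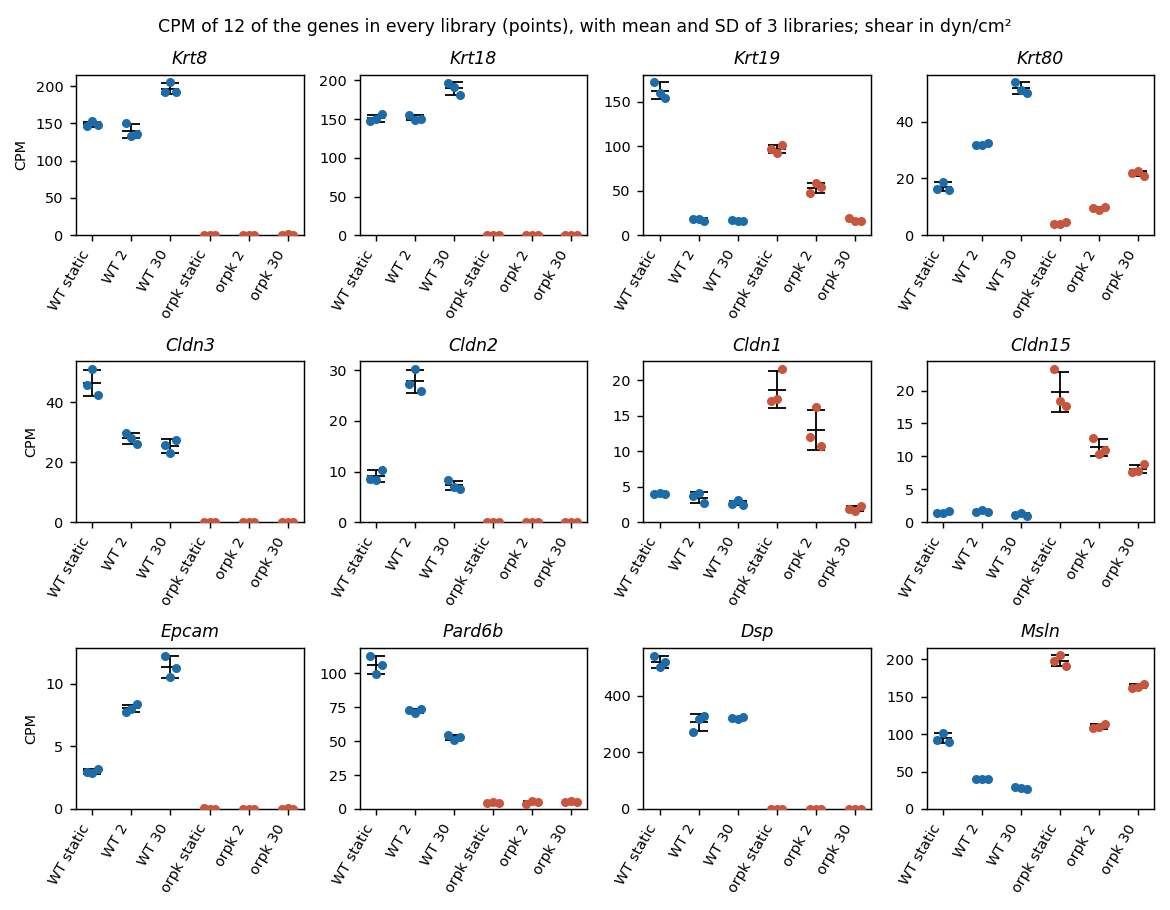
CPM of 12 of the genes in every library (points; blue WT, red orpk), with the mean and SD of the 3 libraries of each group, by genotype and shear in dyn/cm2. Krt8, Krt18, Cldn3, Cldn2, Epcam and Dsp lie near 0 in the 9 orpk libraries, Cldn15 and Msln lie higher in orpk than in WT cells, and Krt19 falls from static to 30 dyn/cm2 in both.

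Among the claudins, 5 of 7 tested were lower and 2 higher in orpk cells in static culture, beside 43.4% and 44.4% of all tested genes. Cldn3, a sealing claudin of many epithelia, stood at 45.7, 51.1 and 42.6 CPM in static WT libraries and had 0 reads in the static orpk libraries. Set against 3 reads over the group, it was at least 664.5-fold lower. It again had 0 reads in orpk cells at 2 dyn/cm2, and 1 read at 30 dyn/cm2. In WT cells it fell to 29.8, 28.1 and 25.9 CPM at 2 dyn/cm2 (-0.73 ± 0.07, adjusted p = 4.47e-11) and to 25.8, 22.9 and 27.4 CPM at 30 dyn/cm2 (-0.87 ± 0.07, adjusted p = 6.1e-13), below every static library. The levels at 2 and 30 dyn/cm2 were not called different (-0.14 ± 0.08, adjusted p = 0.164).

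Cldn4, the neighbour of Cldn3 on chromosome 5 with 39.3 kb between them, showed another pattern under flow. This claudin is known from the collecting duct of the kidney. It stood at 1.57, 1.19 and 1.84 CPM in static WT libraries, 1.30, 1.02 and 1.63 CPM at 2 dyn/cm2 and 6.41, 5.602 and 5.79 CPM at 30 dyn/cm2. It rose at 30 dyn/cm2 (1.93 ± 0.18, adjusted p = 3.31e-12 against static) in the same libraries in which Cldn3 fell. Orpk cells held 3, 0 and 2 reads of Cldn4 in the 3 groups, and the WT level was 22.3-fold higher in static culture, with a 95% exact counting interval of 7.35 to 110.9. The windows of both genes, with E-boxes in capitals, are shown to set the pair side by side, Cldn3 on the plus strand (chr5:134985964-134986263) and Cldn4 on the minus strand (chr5:134946885-134947184).
Cldn3: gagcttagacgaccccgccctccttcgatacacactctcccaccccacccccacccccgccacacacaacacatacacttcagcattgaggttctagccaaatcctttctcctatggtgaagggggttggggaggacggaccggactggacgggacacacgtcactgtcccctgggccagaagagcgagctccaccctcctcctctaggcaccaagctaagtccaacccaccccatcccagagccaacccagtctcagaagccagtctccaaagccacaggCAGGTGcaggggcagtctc
Cldn4: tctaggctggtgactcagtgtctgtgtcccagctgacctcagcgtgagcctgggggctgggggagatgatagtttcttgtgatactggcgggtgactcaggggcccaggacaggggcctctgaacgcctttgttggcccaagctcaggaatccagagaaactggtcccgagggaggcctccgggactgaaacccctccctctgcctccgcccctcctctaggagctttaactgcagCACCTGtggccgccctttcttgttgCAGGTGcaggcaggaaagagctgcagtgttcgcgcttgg

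Cldn2, which forms a pore for cations and water in leaky epithelia such as the proximal tubule, peaked at the low shear. WT libraries held 8.62, 8.26 and 10.4 CPM static, 27.4, 30.3 and 25.9 CPM at 2 dyn/cm2 and 8.27, 6.99 and 6.504 CPM at 30 dyn/cm2. All libraries at 2 dyn/cm2 lay above all others, with a rise of 1.60 ± 0.09, adjusted p = 5.93e-18 from static and a change of -1.94 ± 0.09, adjusted p = 1.32e-19 from 2 to 30 dyn/cm2. The level at 30 dyn/cm2 overlapped that of static libraries and was lower (-0.34 ± 0.12, adjusted p = 0.011). Scaling by library totals ended this call (-0.25, adjusted p = 0.057), as did leaving out static replicate 3 (-0.22, adjusted p = 0.144) or replicate 3 at 30 dyn/cm2 (-0.27, adjusted p = 0.0758). Cldn19, a partner of Cldn16 in magnesium reabsorption, also was highest at 2 dyn/cm2, with 0.472 ± 0.152, 2.65 ± 0.362 and 0.657 ± 0.290 CPM (SD, n = 3) in the same order. It rose at 2 dyn/cm2 (2.48 ± 0.29, adjusted p = 1.22e-09) and fell again at 30 dyn/cm2 (-1.98 ± 0.26, adjusted p = 5.26e-08). In orpk cells it had 7, 22 and 4 reads. The rise at 2 dyn/cm2 there (1.46 ± 0.59, adjusted p = 0.0304) was lost in DESeq2 (adjusted p = 0.0652) and without static replicate 2 (0.0954), static replicate 3 (0.121) or replicate 1 at 2 dyn/cm2 (0.0783). Its lower static level in orpk than in WT cells (-1.49 ± 0.59, adjusted p = 0.0188) was lost when any of 3 static libraries was left out. The adjusted p was 0.0631 without orpk replicate 2, 0.082 without orpk replicate 3 and 0.0764 without WT replicate 2.

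Both claudins that stood higher in static orpk cells fell with flow there. Cldn15, a pore-forming claudin of the small intestine, stood at 1.44, 1.399 and 1.67 CPM in static WT and 23.3, 18.4 and 17.6 CPM in static orpk libraries (3.70 ± 0.15, adjusted p = 1.61e-25). Orpk libraries fell to 12.8, 10.3 and 11.01 CPM at 2 dyn/cm2 and 7.64, 7.79 and 8.83 CPM at 30 dyn/cm2 (-1.29 ± 0.11, adjusted p = 3.5e-14 against static) and lay above every WT library throughout. Its WT levels of 1.57, 1.802 and 1.57 and 1.14, 1.33 and 0.992 CPM under flow were not called against static. Cldn1, the claudin that seals the epidermis, stood at 3.98, 4.06 and 4.02 CPM in static WT and 17.0, 17.4 and 21.7 CPM in static orpk libraries (2.21 ± 0.14, adjusted p = 1.34e-15). It was 12.03, 16.2 and 10.8 CPM in orpk libraries at 2 dyn/cm2 and 1.797, 1.57 and 2.33 CPM at 30 dyn/cm2 (-3.30 ± 0.18, adjusted p = 2.45e-17 against static). The orpk libraries at 30 dyn/cm2 thus lay below the WT libraries, which held 2.58, 3.05 and 2.48 CPM, but the difference was not called (-0.52 ± 0.26, adjusted p = 0.0611). It was called with library totals (-0.83, adjusted p = 0.0027), without the filter on low counts (-0.51, adjusted p = 0.019), with these groups fitted alone (-0.53, adjusted p = 0.0149) and without orpk replicate 3 (-0.68, adjusted p = 0.0362). WT libraries held 3.64, 4.08 and 2.66 CPM at 2 dyn/cm2. The WT fall at 30 dyn/cm2 (-0.57 ± 0.21, adjusted p = 0.0158) was lost without WT replicate 3 (-0.51, adjusted p = 0.0599).

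Cldn12, a broadly expressed claudin without the usual PDZ-binding tail, was expressed in both genotypes. It stood at 74.4 ± 2.92 CPM (SD, n = 3) in static WT and 35.7 ± 2.64 CPM in static orpk cells (-1.06 ± 0.05, adjusted p = 4.05e-22). It rose at 30 dyn/cm2 in both genotypes, by 0.49 ± 0.04, adjusted p = 4.75e-13 in WT and 0.44 ± 0.06, adjusted p = 4.7e-09 in orpk cells. Of the claudins with too few reads to test, Cldn6 had 15 reads in static WT and 1 in static orpk cells, and Cldn7, Cldn10 and Cldn16 had at most 6 reads in any group. Per kilobase of exon Cldn3 made up 61.6% of the summed claudin level in static WT cells, while in static orpk cells Cldn15 made up 42.9% and Cldn12 38.9%. Of 11 other claudins listed for comparison, 3 were tested, and Cldn5, the endothelial claudin, had 1 read over the 18 libraries.

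The tight junction scaffold genes Tjp1 and Cgn were expressed in both genotypes, and Tjp3, Marveld2 and Crb3 were near 0 in orpk cells. All 8 tested genes of this role were lower in orpk cells at every shear. Among all tested genes 43.4% were lower in static culture, 42.9% at 2 and 42.0% at 30 dyn/cm2. Tjp1 (ZO-1), the core scaffold shared by epithelium and endothelium, stood at 425 ± 10.4 CPM (SD, n = 3) in static WT and 202 ± 2.12 CPM in static orpk cells (-1.07 ± 0.05, adjusted p = 5.69e-16). Its WT level fell under flow (-0.51 ± 0.05, adjusted p = 3.58e-09, at 2 and -0.39 ± 0.05, adjusted p = 2.72e-07, at 30 dyn/cm2). Its orpk level rose, by 0.15 ± 0.05, adjusted p = 0.0211, at 2 and 0.17 ± 0.05, adjusted p = 0.0068, at 30 dyn/cm2. The orpk call at 2 dyn/cm2 was lost with RLE size factors (0.12, adjusted p = 0.0606) and in DESeq2 (0.12, adjusted p = 0.0529). It was also lost without static replicate 1 (0.14, adjusted p = 0.0565), static replicate 2 (0.14, adjusted p = 0.0606) or replicate 1 at 2 dyn/cm2 (0.12, adjusted p = 0.088). Tjp3 (ZO-3), an epithelial relative, stood at 8.62, 9.02 and 7.76 CPM in static WT libraries and had 0 reads in static orpk libraries, at least 121-fold lower. WT libraries held 4.78, 6.19 and 4.88 CPM of it at 2 dyn/cm2 and 4.67, 4.11 and 5.24 CPM at 30 dyn/cm2, below every static library (-0.85 ± 0.13, adjusted p = 2.63e-07 at 30 dyn/cm2). Orpk cells held 4 and 0 reads.

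F11r (JAM-A), an adhesion molecule of epithelial and endothelial junctions, stood at 98.7 ± 3.55 CPM (SD, n = 3) in static WT and 38.8 ± 0.741 CPM in static orpk cells (-1.35 ± 0.05, adjusted p = 1.95e-27). It rose at 30 dyn/cm2 in both, by 0.23 ± 0.04, adjusted p = 2.8e-06, in WT and 0.27 ± 0.05, adjusted p = 1.88e-05, in orpk cells. It fell at 2 dyn/cm2 in orpk cells (-0.27 ± 0.05, adjusted p = 4.51e-05) and was not called in WT cells (0.03 ± 0.04, adjusted p = 0.476), where library totals gave a call (0.14, adjusted p = 0.00176). The orpk fall was -0.16 (adjusted p = 0.00815) with that scaling. The responses at 2 dyn/cm2 differed by -0.30 ± 0.07, adjusted p = 0.000228. Cgn (cingulin) stood at 64.0 ± 1.71 CPM in static WT and 20.9 ± 0.282 CPM in static orpk cells (-1.61 ± 0.07, adjusted p = 4.11e-24). It fell in WT cells at 30 dyn/cm2 (-0.48 ± 0.06, adjusted p = 2.31e-09). Its window on the minus strand (chr3:94786433-94786732) is shown because it is 1 of the 2 that hold the motif of the Grhl factors, AACCNGTT or AACNGGTT on the other strand, in capitals and 29 bases before the start.
Cgn: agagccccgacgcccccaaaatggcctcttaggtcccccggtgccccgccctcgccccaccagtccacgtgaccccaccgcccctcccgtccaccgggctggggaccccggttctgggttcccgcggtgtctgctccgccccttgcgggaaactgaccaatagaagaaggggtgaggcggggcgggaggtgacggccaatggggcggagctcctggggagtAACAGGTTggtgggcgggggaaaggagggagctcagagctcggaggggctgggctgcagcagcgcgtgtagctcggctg

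Marveld2 (tricellulin), which seals the corners where 3 cells meet, rose with flow in WT cells. It stood at 1.57, 2.31 and 1.84 CPM in static libraries, 7.01, 6.19 and 6.67 CPM at 2 dyn/cm2 (1.804 ± 0.17, adjusted p = 6.93e-12) and 6.77, 5.44 and 7.28 CPM at 30 dyn/cm2 (1.77 ± 0.18, adjusted p = 8.93e-12). Every library under flow lay above every static one, and orpk cells held 4, 4 and 2 reads of it in the 3 groups. Its neighbour on chromosome 13 with 43.2 kb between them, Ocln (occludin), the first tight junction membrane protein to be named, had too few reads to test. It had 4, 17 and 7 reads in the WT groups and 2, 4 and 0 in the orpk groups. Marveld3, the remaining gene of the occludin family, stood at 1.48 ± 0.464 CPM (SD, n = 3) in static WT cells. Its fall at 30 dyn/cm2 (-0.73 ± 0.26, adjusted p = 0.0129) was lost without static replicate 2 (-0.49, adjusted p = 0.163), without replicate 3 at 30 dyn/cm2 (-0.65, adjusted p = 0.0517) and in DESeq2 (-0.77, adjusted p = 0.0995).

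Of the polarity genes, Pard6b fell with flow in WT cells and Crb3 was near 0 in orpk cells. Pard6b, the adaptor of the Par complex, stood at 113, 99.2 and 106 CPM in static WT and 4.35, 4.78 and 4.68 CPM in static orpk libraries (-4.52 ± 0.08, adjusted p = 2.35e-38). It fell step by step with flow in WT cells, to 73.0, 70.4 and 73.3 CPM and then 54.5, 51.0 and 53.0 CPM (-1.01 ± 0.05, adjusted p = 3.89e-21 against static), without overlap between groups. In orpk cells it stood at 4.03, 5.71 and 4.89 CPM at 2 dyn/cm2 and 5.47, 6.07 and 4.88 CPM at 30 dyn/cm2, not called (0.25 ± 0.14, adjusted p = 0.116 at 30 dyn/cm2). This response differed from that of WT cells by 1.26 ± 0.15, adjusted p = 2.68e-09. Crb3, the epithelial Crumbs protein of the apical membrane, stood at 7.90, 6.72 and 7.12 CPM in static WT libraries and had 1, 3 and 3 reads in the 3 orpk groups. It was 313-fold lower in static culture, with a 95% exact counting interval of 55.8 to 12400. Under flow its WT libraries held 7.44, 9.25 and 7.97 CPM and 5.51, 5.66 and 5.68 CPM. The difference of 30 dyn/cm2 from static (-0.37 ± 0.13, adjusted p = 0.00983) was lost without static replicate 1 (-0.30, adjusted p = 0.0603) and in DESeq2 (-0.38, adjusted p = 0.0594). Per kilobase of exon, static WT cells held 54.4 CPM per kb of Tjp1, 37.0 of F11r, 31.2 of Pard6b, 10.6 of Cgn, 4.63 of Crb3 and 2.28 of Tjp3. In static orpk cells the order began with Tjp1 (25.9), F11r (14.6) and Cgn (3.48).

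Epcam, Grhl2 and Esrp1 rose with flow in WT cells, and these genes and Esrp2 were near 0 in orpk cells. Epcam, an adhesion molecule that marks most simple epithelia, stood at 2.94, 2.87 and 3.22 CPM in static WT libraries. It rose to 7.77, 7.99 and 8.35 CPM at 2 dyn/cm2 (1.41 ± 0.14, adjusted p = 1.14e-11) and 12.2, 10.5 and 11.2 CPM at 30 dyn/cm2 (1.90 ± 0.13, adjusted p = 2.57e-16), with no overlap between the 3 groups. In orpk cells it had 1, 0 and 1 reads, 130-fold lower than WT in static culture with a 95% exact counting interval of 23.0 to 5186. Grhl2, a Grainyhead factor that activates junction genes such as Cldn4, and Esrp1, a splicing factor of epithelial isoforms, rose in WT cells from under 1 CPM. Grhl2 stood at 0.5004 ± 0.181 CPM (SD, n = 3) static, 1.43 ± 0.215 at 2 dyn/cm2 (1.54 ± 0.31, adjusted p = 3.77e-05) and 1.52 ± 0.148 at 30 dyn/cm2 (1.61 ± 0.31, adjusted p = 1.38e-05). Esrp1 stood at 0.439 ± 0.119, 1.09 ± 0.257 and 1.14 ± 0.317 CPM (SD, n = 3), with rises of 1.27 ± 0.36, adjusted p = 0.00233 and 1.35 ± 0.35, adjusted p = 0.000957. Esrp2, its close relative, stood in WT cells at 14.2, 13.4 and 14.1 CPM static, 15.0, 13.8 and 15.0 CPM at 2 dyn/cm2 and 16.2, 15.5 and 15.3 CPM at 30 dyn/cm2, and was not called in any shear comparison. With library totals 30 dyn/cm2 was called against static (0.26, adjusted p = 0.0061). It stood at 0.570, 0.387 and 0.146 CPM in static orpk libraries (-5.20 ± 0.19, adjusted p = 1.67e-26) and at most at 0.599 CPM in an orpk library under flow.

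The defining epithelial cadherin was near absent from both genotypes. Cdh1 had 5, 11 and 2 reads in the WT groups and 5, 9 and 2 reads in the orpk groups, in the order static, 2 and 30 dyn/cm2, while WT cells held Epcam, Krt8 and Dsp. Other cadherins were present, Cdh16 (the kidney cadherin) at 666 ± 65.0 CPM (SD, n = 3), Cdh3 (P-cadherin) at 296 ± 11.2 CPM and Cdh2 (N-cadherin) at 157 ± 5.18 CPM in static WT cells. In static orpk cells these stood at 0.488 ± 0.0317, 19.9 ± 0.242 and 188 ± 0.400 CPM, so Cdh2 alone of the 3 was higher there (0.26 ± 0.04, adjusted p = 5.42e-08). The size of this difference depends on the scaling. With library totals the median of all genes in this comparison moved from 0.01 to -0.21, a shift nearly as large as the Cdh2 difference. Rab25, a recycling GTPase of epithelia, was not tested, with 17 reads in static WT and 4 in static orpk cells.

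The windows of Epcam (plus strand, chr17:87635729-87636028) and Crb3 (plus strand, chr17:57061951-57062250) are shown because each holds more than 1 E-box, in capitals. In Epcam the matches begin 187 and 19 bases before the start, and the Crb3 window holds 4.
Epcam: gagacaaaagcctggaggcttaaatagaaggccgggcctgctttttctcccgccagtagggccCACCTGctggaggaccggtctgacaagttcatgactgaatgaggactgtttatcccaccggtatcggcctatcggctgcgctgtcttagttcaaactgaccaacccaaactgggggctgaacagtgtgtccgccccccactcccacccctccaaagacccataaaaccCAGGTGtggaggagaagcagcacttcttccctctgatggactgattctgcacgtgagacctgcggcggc
Crb3: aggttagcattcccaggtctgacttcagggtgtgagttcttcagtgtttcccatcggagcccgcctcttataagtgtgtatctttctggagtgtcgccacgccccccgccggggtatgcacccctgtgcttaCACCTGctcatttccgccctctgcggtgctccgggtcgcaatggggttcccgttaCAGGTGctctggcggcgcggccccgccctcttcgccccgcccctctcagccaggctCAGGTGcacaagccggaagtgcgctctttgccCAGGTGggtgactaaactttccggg

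Windows were found for 30 of the 44 genes. CAGGTG, read on both strands, occurred in 17 of the 30, compared with 22.6% of 27025 genes with a window of the same length. Those with a match were Krt7, Krt8, Krt18, Krt23, Cldn3, Cldn4, Cldn6, Cldn7, Ocln, Tjp3, F11r, Marveld2, Crb3, Pard6b, Epcam, Rab25 and Dsp. Of the 12 tested genes among them 12 were lower in static orpk cells. Of the 10 tested genes without a match 8 were lower and 2, Cldn1 and Cldn15, were higher. Among all tested genes 43.4% were lower. Cldn3, Cldn4, Tjp3, Marveld2, Crb3 and Epcam among the genes with a match had 10 reads or fewer in the 9 orpk libraries. So had Krt20 and Cldn2 among those without. Such genes entered the test through the WT libraries and could hardly come out higher, so these counts are no test of the E-box. AACCNGTT occurred in 2 of the 30, Cgn and Rab25, compared with 2.35% of all genes, and did not overlap an E-box in either. These are matches of letters in 300 bases, and binding of any factor was not measured.

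Desmosome genes divided between those near 0 and those well expressed in orpk cells. Dsp (desmoplakin), which ties keratin filaments to the desmosome, stood at 539.8, 499.8 and 517 CPM in static WT libraries. Static orpk libraries held 0.642, 0.517 and 1.10 CPM (-9.44 ± 0.11, adjusted p = 1.34e-30). It fell in WT cells to 269.9, 316 and 329 CPM at 2 dyn/cm2 (-0.77 ± 0.05, adjusted p = 5.41e-13) and 320, 317 and 324 CPM at 30 dyn/cm2 (-0.70 ± 0.05, adjusted p = 2.51e-12), below every static library. Orpk libraries held 0.595, 0.361 and 0.804 and then 0.974, 0.929 and 1.01 CPM. Dsg2, the desmosomal cadherin of simple epithelia, stood at 7.70, 6.995 and 7.99 CPM in static WT libraries and at 0 reads in static orpk libraries, at least 109-fold lower. It fell in WT cells to 1.57, 2.88 and 2.495 CPM at 2 dyn/cm2 (-1.72 ± 0.16, adjusted p = 7.42e-12) and 2.396, 2.72 and 2.31 CPM at 30 dyn/cm2 (-1.61 ± 0.16, adjusted p = 1.82e-11). Dsc2, the other cadherin of this kind, was not tested, with 11, 17 and 25 reads in the WT groups and 0, 0 and 1 in the orpk groups.

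Plakoglobin and the plakophilins, which link the desmosomal cadherins to Dsp, were expressed in both genotypes. Jup (plakoglobin), which also serves adherens junctions, stood at 282 ± 13.8 CPM (SD, n = 3) in static WT and 178 ± 5.41 CPM in static orpk cells (-0.67 ± 0.04, adjusted p = 1.57e-20). Under 30 dyn/cm2 the levels were 356 ± 5.07 and 348 ± 3.48 CPM and the difference was not called (-0.03 ± 0.03, adjusted p = 0.397). It was called with library totals as the scaling (-0.35, adjusted p = 2.35e-12). Its rise from static to 30 dyn/cm2 was larger in orpk cells (0.97 ± 0.04, adjusted p = 1.45e-25) than in WT cells (0.34 ± 0.03, adjusted p = 3e-11), by 0.64 ± 0.05, adjusted p = 2.66e-14. Pkp2, the plakophilin of simple epithelium and heart, stood at 118 ± 2.05 CPM in static WT and 26.9 ± 1.75 CPM in static orpk cells. Under flow it fell in WT cells (-0.70 ± 0.04, adjusted p = 1.16e-17, at 2 and -0.42 ± 0.04, adjusted p = 1.42e-11, at 30 dyn/cm2). In orpk cells it rose (0.45 ± 0.06, adjusted p = 1.43e-08, and 0.75 ± 0.06, adjusted p = 8.81e-15). The difference between the genotypes in this response was 1.15 ± 0.07, adjusted p = 6.94e-17 at 2 and 1.17 ± 0.07, adjusted p = 1.62e-17 at 30 dyn/cm2. Pkp3 was the gene of the 33 that was not called between the genotypes in static culture, with a WT level of 3.87 ± 0.691 CPM and an orpk level of 3.46 ± 0.263 CPM (-0.18 ± 0.16, adjusted p = 0.288). With library totals it was called lower in orpk cells (-0.39, adjusted p = 0.0202).

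Perp, a membrane protein of desmosomes and a target of p53, was the desmosome gene that stood higher in orpk cells. WT libraries held 4.24, 4.69 and 4.02 CPM static, 7.66, 7.27 and 8.30 CPM at 2 dyn/cm2 and 8.57, 9.93 and 8.76 CPM at 30 dyn/cm2. Orpk libraries held 19.3, 19.1 and 19.8, 31.6, 33.8 and 33.8 and 26.4, 26.5 and 28.8 CPM, each above every WT library (2.17 ± 0.10, adjusted p = 3.37e-23 in static culture). It rose with flow in both genotypes, by 1.08 ± 0.11, adjusted p = 3.05e-11 in WT and 0.49 ± 0.07, adjusted p = 7e-08 in orpk cells at 30 dyn/cm2. In orpk cells the level at 30 dyn/cm2 was lower than that at 2 dyn/cm2 (-0.28 ± 0.06, adjusted p = 0.000182). Per kilobase of exon the order of these desmosome genes in static WT cells was Dsp (53.7 CPM per kb), Jup (43.8), Pkp2 (21.9), Perp (2.21) and Pkp3 (1.07). In static orpk cells it was Jup (27.6), Perp (9.94), Pkp2 (5.02), Pkp3 (0.958) and Dsp (0.0779).

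Msln and Upk3b, known from mesothelium, went opposite ways between the genotypes. Msln (mesothelin) stood at 92.5, 102 and 89.2 CPM in static WT and 198, 206 and 191 CPM in static orpk libraries (1.07 ± 0.04, adjusted p = 2.37e-25). WT libraries fell to 40.7, 39.9 and 39.7 CPM at 2 dyn/cm2 and 29.9, 27.9 and 27.1 CPM at 30 dyn/cm2 (-1.74 ± 0.05, adjusted p = 9.72e-29 against static). Orpk libraries fell to 108, 109.5 and 114 CPM at 2 dyn/cm2 and stood at 162, 164 and 168 CPM at 30 dyn/cm2. From 2 to 30 dyn/cm2 Msln rose in orpk cells (0.57 ± 0.04, adjusted p = 2.28e-15) and fell in WT cells (-0.51 ± 0.06, adjusted p = 1.34e-09). Upk3b stood at 2.92 ± 0.510 CPM (SD, n = 3) in static WT cells and had 6 reads in static orpk cells, all in replicate 1 (-4.30 ± 0.44, adjusted p = 8.35e-12, and -8.53 without that replicate). Beside these values, 10 other mesothelial markers, Wt1 and Lrrn4 among them, summed to 0.490 to 0.632 CPM in static WT libraries, where 8 had 0 reads. They summed to 156.1 to 162.5 CPM in static orpk libraries, where 4 of the 10 were over 1 CPM and 3, Calb2, Gpm6a and Upk1b, had 0 reads. All 6 tested were higher in static orpk cells, as were 44.4% of all tested genes. Their part in the Msln level was not tested.

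Flow changed many of the 33 genes in WT cells, in both directions. Against static, 9 rose and 13 fell at 2 dyn/cm2, where 62.9% of all tested genes were called (32.6% higher and 30.3% lower). With 30 dyn/cm2 12 rose and 15 fell, where 66.9% of all genes were called (34.1% higher and 32.7% lower). From 2 to 30 dyn/cm2 10 rose and 8 fell, where 33.1% of all genes were called (15.9% higher and 17.2% lower). The comparisons of 2 and of 30 dyn/cm2 with static cells share the static libraries. The median log2 fold change over the 33 was -0.03 at 2 and -0.03 at 30 dyn/cm2, next to 0.01 and 0.0040 over all genes. With library totals as the scaling, 12 rose and 13 fell at 2 dyn/cm2, where the median of all genes was shifted to 0.12.

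By role, WT cells under 30 dyn/cm2 showed more Epcam, Grhl2 and Esrp1 (3 of 4 adhesion genes and regulators rose, 0 fell) and less of most tight junction and polarity genes (2 of 8 rose, 6 fell). Of the keratins 3 of 6 rose and 1 fell, of the claudins 2 of 7 rose and 3 fell, of the desmosome genes 2 of 6 rose and 3 fell, and both mesothelial genes fell. Among all tested genes 34.1% rose and 32.7% fell in this comparison, and counts by role this small are no test of a role. Other epithelial regulators and surface genes, 24 listed and 18 tested, went mostly down in WT cells at 30 dyn/cm2 (4 rose, 13 fell), the reverse of Grhl2 and Esrp1. Of 20 tested further tight junction and polarity genes 2 rose and 12 fell. In static culture 6 of them were higher and 13 lower in orpk cells, beside 44.4% and 43.4% of all tested genes.

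In orpk cells under flow 13 of the 33 genes were called in each of the 3 comparisons, a smaller share than that of all genes. Against static, 7 rose and 6 fell at 2 dyn/cm2, where 62.0% of all tested genes were called (30.9% higher and 31.1% lower). With 30 dyn/cm2 8 rose and 5 fell, where 69.9% were called (36.5% higher and 33.3% lower). From 2 to 30 dyn/cm2 7 rose and 6 fell, where 63.6% were called (32.1% higher and 31.5% lower). The 11 genes with 10 reads or fewer in the 9 orpk libraries are among the 33, and at this depth changes in them were mostly not detectable. Called higher at 30 dyn/cm2 were Krt8, Krt80, Cldn12, Tjp1, F11r, Pkp2, Jup and Perp, and those called lower were Krt19, Cldn1, Cldn15, Pkp3 and Msln. With library totals as the scaling 6 rose and 8 fell from 2 to 30 dyn/cm2. The call of Tjp3 at 2 dyn/cm2 (4 reads against 0) was lost when any 1 of these 6 libraries was left out (adjusted p = 0.0505 to 0.114), in DESeq2 (0.0963) and without the filter on low counts (0.051). That of Upk3b was lost without static replicate 2 (adjusted p = 0.155), static replicate 3 (0.125) or replicate 2 at 2 dyn/cm2 (0.21), and without static replicate 1 its log2 fold change was 5.96.

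Both genotypes were compared gene by gene for their response to flow. Under 30 dyn/cm2 Krt8, Krt80, Cldn12, F11r, Jup and Perp rose in both, Krt19, Cldn1 and Msln fell in both, and Tjp1 and Pkp2 fell in WT and rose in orpk cells. The test of the difference in response called 10 of the 33 at 2 dyn/cm2, 7 with the orpk change above the WT change and 3 below it, and 52.6% of all genes (27.1% and 25.4%). It called 15 at 30 dyn/cm2, 11 above and 4 below, and 57.5% of all genes (30.6% and 26.9%). For the step from 2 to 30 dyn/cm2 it called 11, 7 above and 4 below, and 46.5% of all genes (25.0% and 21.5%). Genes with 3 reads or fewer in a group, among them Tjp3 and Grhl2, are given no size for this difference. Among the other called genes Krt19 and Pkp2 differed by over 1 at 2 dyn/cm2, and at 30 dyn/cm2 Cldn1 differed by -2.73 ± 0.30, adjusted p = 1.69e-09 and Msln by 1.47 ± 0.07, adjusted p = 5.29e-22. Upk3b differed by 2.496 ± 0.71, adjusted p = 0.00286, at 2 dyn/cm2 and by 2.96 ± 0.83, adjusted p = 0.00223, at 30 dyn/cm2, and by 6.72 and 7.19 without static orpk replicate 1. The call of Upk3b at 2 dyn/cm2 was lost without orpk replicate 2 (1.92, adjusted p = 0.0505).

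**Figure D4:**
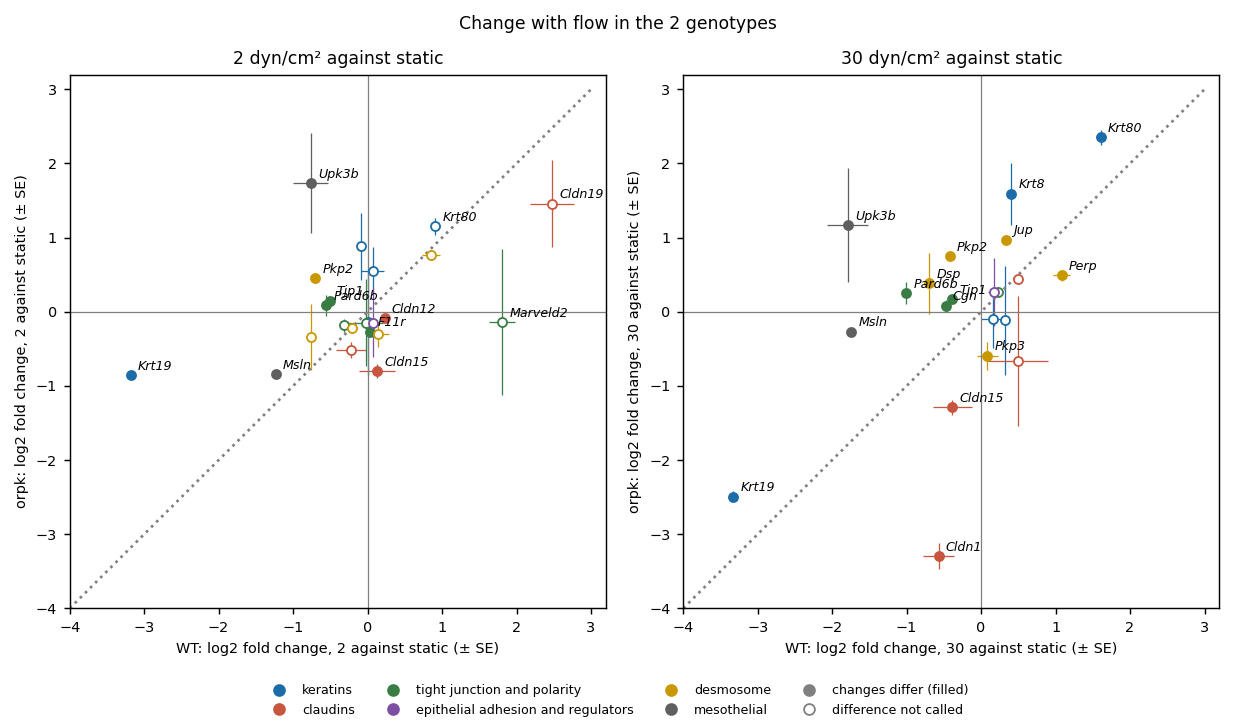
Log2 fold change with flow in WT cells (horizontal axis, ± SE) against that in orpk cells (vertical axis, ± SE), at 2 dyn/cm2 (left) and 30 dyn/cm2 (right), for tested genes with more than 3 reads in every group compared. Filled points are genes whose response differed between the genotypes, the dotted line marks equal responses, and Krt19 lies far above the line at 2 dyn/cm2 while Cldn1 lies far below it at 30 dyn/cm2.

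Other marker genes moved with the genotype over the same libraries. In static culture 87.8% of all tested genes were called between the genotypes, 44.4% higher and 43.4% lower in orpk cells, so being called is in itself no result about these lists. Of 14 kidney epithelium markers, 9 were tested and 8 were lower and 1 higher in static orpk cells. They summed to 1733 to 2009 CPM in static WT, 1350 to 1515 CPM in WT at 2 dyn/cm2 and 1196 to 1257 CPM in WT at 30 dyn/cm2. The orpk libraries summed to 17.1 to 21.8, 15.9 to 16.3 and 18.7 to 21.3 CPM in the same order, and Umod, the marker of the thick ascending limb, had 0 reads in every group. Slc34a1, the phosphate carrier of the proximal tubule, had 0 reads in both static groups, and Pax2 had 0 reads in static orpk cells. Of 6 fibroblast markers 6 were higher in orpk cells at every shear, beside 44.6% of all tested genes at 2 and 44.9% at 30 dyn/cm2. They summed to 985.7 to 1052 CPM in static WT and 39660 to 40520 CPM in static orpk libraries. These sums were 715.5 to 739 and 1148 to 1155 CPM in WT libraries at 2 and 30 dyn/cm2, and 25630 to 30270 and 28930 to 30850 CPM in orpk libraries. Of the 14 endothelial markers 9 were tested, of which 7 were higher and 2 lower in static orpk cells. Of the 6 smooth muscle markers 4 were higher and 1 lower, with sums of 546.6 to 570.5 CPM in static WT and 966 to 1072 CPM in static orpk libraries. The part of these cell types in the keratin, claudin and desmosome levels was not tested.

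Repressors and activators of the epithelial state also differed, in static culture beside 44.4% of all tested genes higher and 43.4% lower in orpk cells. Of 9 repressors 8 were higher and 1, Snai3, lower in orpk cells at every shear. At 2 dyn/cm2 44.6% of all tested genes were higher and 42.9% lower, and at 30 dyn/cm2 44.9% and 42.0%. The repressors summed to 186 to 198 CPM in static WT and 1373 to 1419 CPM in static orpk libraries. Snai2 (Slug) had 4 reads in static WT cells and stood at 103 ± 2.84 CPM (SD, n = 3) in static orpk cells (10.12 ± 0.15, adjusted p = 1.74e-40). Twist1 had 1 read against 44.3 ± 1.53 CPM. Zeb2 stood at 17.9 ± 0.446 and 136 ± 4.98 CPM (2.92 ± 0.06, adjusted p = 7.32e-36). Zeb1 was expressed in both, at 53.9 ± 2.501 and 97.0 ± 5.06 CPM (0.85 ± 0.05, adjusted p = 5.18e-19). Of the 18 tested other epithelial regulators and surface genes 16 were lower and 1 higher in static orpk cells, with sums of 1257 to 1379 CPM in WT and 117.7 to 121.5 CPM in orpk libraries. Of 13 adherens junction genes and nectins 8 were higher and 4 lower, and of 5 tested other desmosome and plakin genes 0 were higher and 4 lower. These directions were unchanged with RLE size factors and with library totals as the scaling.

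**Figure D5:**
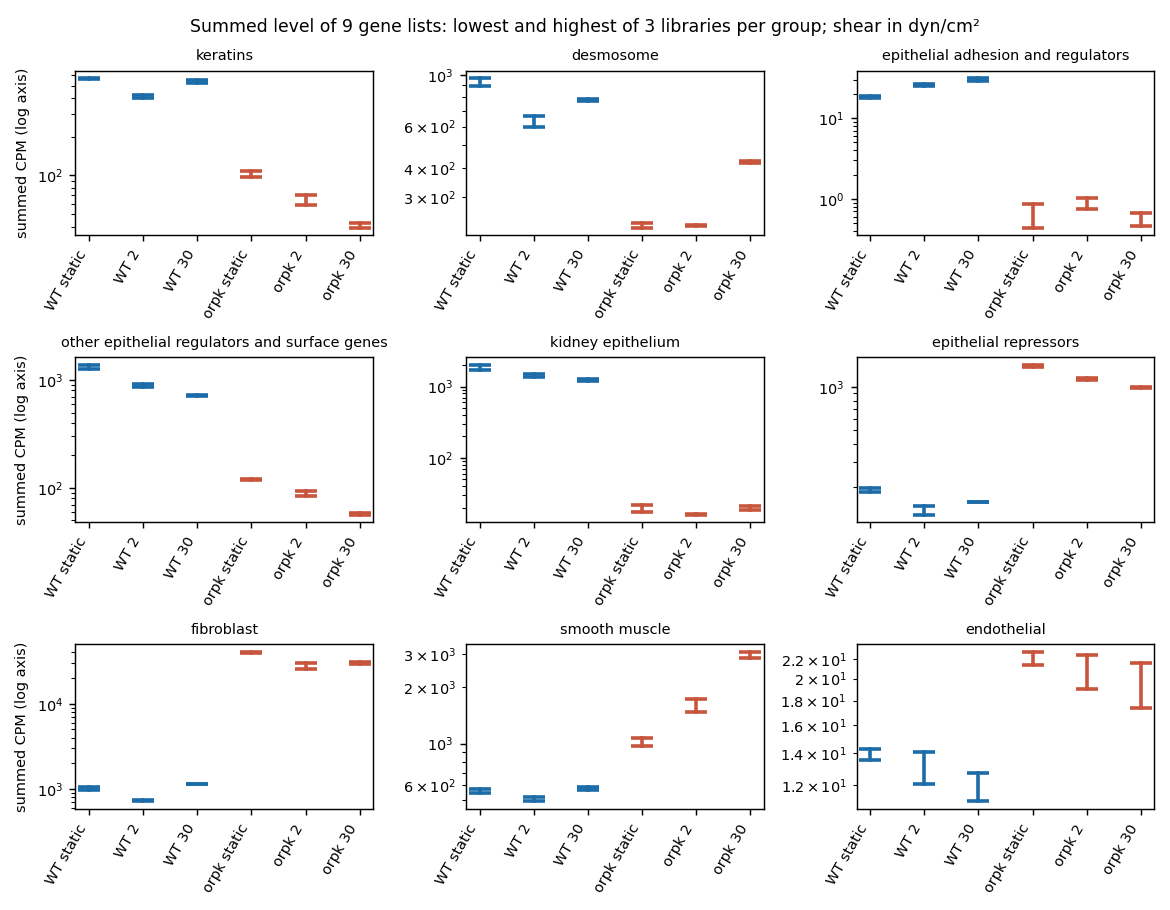
Summed CPM (log axis) of 9 gene lists in each group, shown as the lowest and highest of the 3 libraries, by genotype (blue WT, red orpk) and shear in dyn/cm2. Keratins, desmosome genes, epithelial regulators and kidney epithelium markers lie higher in WT cells, and epithelial repressors, fibroblast, smooth muscle and endothelial markers lie higher in orpk cells.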

How the data were processed

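Poly(A) RNA of 18 libraries was sequenced as stranded single-end reads, per the labels' protocols. CASAVA 1.8.2, STAR 2.4, featureCounts 1.4.6 and the build GRCm38 are named in the submitters' processing notes, and the annotation and strand setting are not given in the sources used here. The authors deposited raw counts per gene, unfiltered, for 21647 genes. Library totals were 13626480 to 17387553, so 1 read is worth about 0.07 CPM and genes of a few reads carry wide counting error; intervals (95%, exact) and floors (3 reads over a group) cover counting error only. Groups and replicates were taken from the sample titles.

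From these counts CPM with TMM scaling were computed, and edgeR 4.0.16 (R 4.3.3, limma 3.58.1) fitted robust quasi-likelihood models with 6 group means to the 13058 genes kept by filterByExpr, with 12 residual degrees of freedom. P-values were Benjamini-Hochberg adjusted within each of 12 comparisons, 3 of which are differences between the genotypes in the response to shear. The procedure was tested on simulated data. Levels per kb use exon lengths of the GRCm38 annotation, and promoter windows of 300 bases come from RefSeq (GRCm38.p6).

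The 44 genes, the other lists and the tests were chosen with earlier results of these data known. Values in every library are given for up to 20 of the 44 genes that passed the threshold in a comparison with a log2 change over 1 and at least 5 CPM in a group, taken by size. Of each other list up to 4 called genes may be named by size. Zeb1 and Cdh2 were named after their values were seen. Alternatives were RLE size factors, library totals, no filter on low counts, DESeq2 1.42.0, the compared groups fitted alone, the replicate number as a block, and leaving out each library.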

Additional observations from a re-analysis of the deposited data

Results flagged for a closer look

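The response to shear differed between WT and orpk cells for 10 of the 33 tested genes at 2 dyn/cm2, 15 at 30 dyn/cm2 and 11 between 2 and 30 dyn/cm2, by edgeR's test of the difference itself. Among all genes 52.6%, 57.5% and 46.5% were called in these tests. Values below are the orpk change minus the WT change on the log2 scale, for genes with a difference over 1 and more than 3 reads in every group.

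At 2 dyn/cm2 Krt19 differed by 2.33, since it fell less in orpk than in WT cells. Pkp2 differed by 1.15 and Upk3b by 2.496, both lower in WT and higher in orpk cells than in static culture, and the Upk3b value rests on 6 reads in 1 static orpk library.

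At 30 dyn/cm2 Cldn1 differed by -2.73, the one value below 0 among those over 1 in size. Krt8 differed by 1.19, on 14 to 40 reads in the orpk groups, and was no longer called without orpk static replicate 2 (0.78, adjusted p = 0.13) or orpk replicate 2 at 30 dyn/cm2 (0.88, adjusted p = 0.114). Dsp differed by 1.08 and lost its call without 1 of 5 orpk libraries, static replicate 1 or 2 or any of those at 30 dyn/cm2, with adjusted p from 0.061 to 0.105. Pard6b differed by 1.26, Pkp2 by 1.17, Msln by 1.47 and Upk3b by 2.96. Without static orpk replicate 1 the Upk3b differences were 6.72 at 2 and 7.19 at 30 dyn/cm2.

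Between 2 and 30 dyn/cm2 Krt19 differed by -1.50 and Cldn1 by -2.44, both of which fell in orpk cells over this step and were not called in WT cells. Msln differed by 1.08, rising in orpk and falling in WT cells.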

How the results depend on the processing

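The number of the 44 genes called in each of the 12 comparisons stayed within 1.5 times its value under every alternative run. Between genotypes 35, 35 and 34 were called without the filter and 34, 34 and 32 in DESeq2 (static, 2 and 30 dyn/cm2), which includes genes outside the 33. Of 237 calls of a gene in a comparison, 221 were kept by every alternative that tested the gene. Under at least 1 alternative 16 were lost, and 0 changed direction. DESeq2 lost 7, library totals 2, no filter 2, RLE size factors 1, groups fitted alone 1 and the replicate block 1. A gene that an alternative did not test is not counted as lost. With the groups fitted alone 29 genes were called in place of 32 between genotypes in static culture. In orpk cells that fit called 11 in place of 13 at 2 dyn/cm2 against static and from 2 to 30 dyn/cm2. All of the 16 but the rise of Cgn from 2 to 30 dyn/cm2 in orpk cells were lost when 1 library was left out. Besides those given above, the fall of Marveld3 from 2 to 30 dyn/cm2 in WT cells was lost without the filter, in DESeq2 and without replicate 1 or 3 of either group (adjusted p = 0.0574 to 0.208). That of Cgn was lost with the groups fitted alone, in DESeq2, without replicate 2 or 3 at 2 dyn/cm2 and without replicate 1 or 2 at 30 dyn/cm2 (adjusted p = 0.0672 to 0.323). The difference in response of Tjp3 at 2 dyn/cm2 was lost without static orpk replicate 1 (adjusted p = 0.0509) or 2 (0.0548) or orpk replicate 3 at 2 dyn/cm2 (0.0734). The rise of Cgn from 2 to 30 dyn/cm2 in orpk cells was lost with library totals (0.15, adjusted p = 0.111). With library totals the median of all genes moved by over 0.1 in 5 comparisons, to 0.12 for WT cells at 2 dyn/cm2 (5630 genes higher and 2916 lower, compared with 4254 and 3960), and Pkp3, Krt19, Jup and Cldn1 became called between genotypes. Leaving out 1 library gave 10 to 12 calls in place of 13 for orpk cells at 2 dyn/cm2 and 24 to 27 in place of 27 for WT cells at 30 dyn/cm2.

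Same-numbered libraries did not deviate together (correlations from -0.0795 to 0.0833), so no pairing by number was seen. Whether a number marks a shared isolation or day is not given in the sources used here, and these correlations cannot decide it. With the replicate block 22, 27 and 18 genes were called in WT shear comparisons, 13, 13 and 13 in orpk ones, 32, 33 and 30 between genotypes, and 10, 15 and 11 for the differences in response, as without it, and Tjp3 at 2 dyn/cm2 in orpk cells was lost (adjusted p = 0.0522). Genes with 10 reads or fewer in orpk cells have bounds or wide intervals in place of folds, and small changes in them were not detectable at this depth.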
